A study of Danio rerio with 15 samples.

Results

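Whole zebrafish embryos depleted of Esco2 were compared with control embryos at 48 hours post fertilization (hpf), by gene expression array. The comparison rests on 7 of the 15 arrays of the study, chosen by their labels: all 4 arrays of *esco2* morphants at 48 hpf and the 3 arrays of controls at 48 hpf that carry the replicate numbers 1, 3 and 4. The array of control replicate 2 was not analysed here, its chip being described as faulty in the series' design. The other 8 arrays, 4 of morphants and 4 of controls at 24 hpf, entered the fit for its estimate of the spread. At the 1-cell stage the morphants were given the esco2_ATG morpholino, which lies over the start codon of *esco2* mRNA and blocks its translation, and the controls, labelled wild type, received buffer only. No unrelated morpholino was injected, so a response to *esco2* depletion and a response to a morpholino as such cannot be told apart. Each array was hybridized with RNA from a separate pool of 50 dechorionated embryos.

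Esco2 acetylates the Smc3 subunit of cohesin, the ring complex that holds sister chromatids together, during DNA replication. Cells that divide without this acetylation lose the cohesion of their chromatids too early and can switch on genes of damage response, arrest and cell death. At 48 hpf the zebrafish embryo is still forming neurons, the retina is forming its layers, cartilage is condensing and blood circulates.

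Values are RMA values per probe set as deposited, on the log2 scale, so that a difference of 1 is a 2-fold change. Differences are morphant minus control, and tests come from limma, with a mean for each of the study's 4 groups and p-values adjusted over all 15502 probe sets by the Benjamini and Hochberg method. A gene was represented by its brightest probe set, which gave 8793 genes. Control replicate 3 stood apart. Its mean correlation across probe sets with its own group was 0.985, against 0.992 and 0.989 for control replicates 1 and 4 and 0.996 to 0.997 for the morphants with theirs. Control replicates 1 and 4 correlated at 0.996 with each other, and at 0.987 and 0.982 with control replicate 3. The median of 17 probe sets with no zebrafish target, a measure of background, was 4.63 on this array and 3.78 to 4.33 on the other 6. The heart gene *myl7*, the lens gene *crybb1* and the globin gene *hbbe3* lay well above this background on all 7 arrays, which carry RNA of whole embryos.

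With limits of 0.05 on the adjusted p and 2 on the fold, 141 probe sets changed at 48 hpf (0.91% of those tested), 108 of them raised (0.697%) and 33 lowered (0.213%). Of the 141, 91 carry 1 gene symbol, and they gave 56 raised (0.637% of all genes) and 25 lowered genes (0.284%). Every one of the 141 kept its sign without control replicate 3 and 140 kept an adjusted p of at most 0.05, while 88 also kept the fold. Control replicate 3 was the lowest of the 3 controls for 45 of the 56 raised genes, as it was for 34.2% of all genes. Leaving it out therefore lowered many rises to below 2-fold: 65 probe sets were then raised and 43 lowered. Without control replicate 4, 183 were raised and 33 lowered. When arrays were centred on 71 ribosomal protein genes, which moved the median of all genes to 0.13, 171 were raised and 20 lowered. The differences with and without this array are set against each other in the scatter plot.

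**Figure D1:**
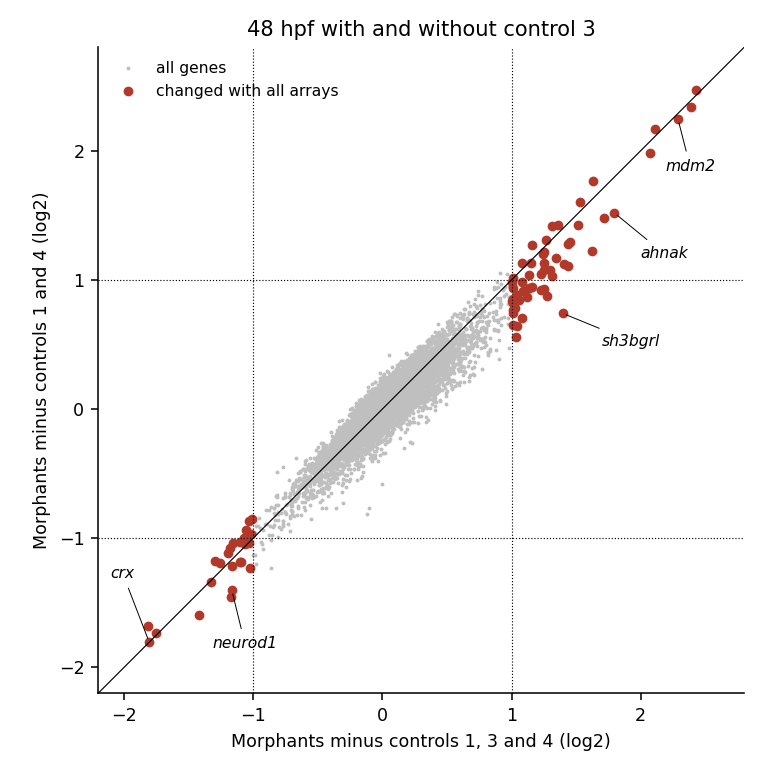
Difference between *esco2* morphants and controls at 48 hpf (log2) for each of 8793 genes, with all 3 controls on the horizontal axis and without control replicate 3 on the vertical axis. Red points are the 81 genes changed with all arrays, dotted lines mark a 2-fold change and the diagonal marks equality, which the large rises such as that of *mdm2* (2.29 and 2.24) lie close to, while *sh3bgrl* (1.40 and 0.74) lies far below it.

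The largest rise was that of *bmb* (brambleberry), which is needed for nuclear envelopes to fuse in the cleaving zebrafish embryo. Its log2 values were 7.71, 7.64, 7.63 and 7.51 in morphants, against 5.19, 5.27 and 5.12 in controls, a 5.38-fold rise (difference 2.43, standard error 0.11, adjusted p = 1.2e-10). Next came *rps27l*, a relative of a small subunit ribosomal protein gene, at 10.67, 10.58, 10.64 and 10.47 in morphants, against 8.13, 8.09 and 8.37 in controls. It rose 5.25-fold (difference 2.39, standard error 0.09, adjusted p = 2.7e-11). The gene *mdm2*, which encodes a ubiquitin ligase, was at 9.19, 9.18, 9.18 and 9.33 in morphants, against 7.04, 6.84 and 6.91 in controls, a 4.89-fold rise (adjusted p = 2.7e-11). For all 3 genes the lowest morphant lay more than 2 log2 units above the highest control, and control replicate 3 was in the range of the other controls or close to it.

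The ubiquitin ligase gene *lnx1* was at 7.5, 7.68, 7.65 and 7.5 in morphants, against 5.44, 5.59 and 5.4 in controls (difference 2.11, adjusted p = 9.8e-09). The gene *phlda3*, which encodes an inhibitor of Akt signaling in mammals, was at 7.66, 7.58, 7.70 and 7.68 in morphants, against 5.67, 5.42 and 5.67 in controls (difference 2.07, adjusted p = 2.9e-10). The gene *rspo1*, which encodes a secreted enhancer of Wnt signaling, rose too (difference 1.63, adjusted p = 2.9e-08), with controls at 4.33, 4.80 and 4.44. The initiator caspase gene *casp8* (1.53, 2.7e-07) had controls closer to each other, like *lnx1* and *phlda3*. So did *parp3*, which encodes a poly(ADP-ribose) polymerase of DNA break repair (1.51, 3.6e-09). The controls of *rspo1*, *casp8* (mean 4.73) and *parp3* (4.71) were near background, so the size of these rises is uncertain. Over *lnx1*, *phlda3* and these genes, differences without control replicate 3 ranged from 1.43 for *parp3* to 2.17 for *lnx1*.

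Other large rises had controls that spread more widely. The scaffold protein gene *ahnak* was at 9.04, 9.17, 9.33 and 9.25 in morphants, against 7.40, 6.86 and 7.95 in controls (difference 1.79, adjusted p = 2.6e-06, and 1.52 without control replicate 3). The exonuclease gene *isg20* was at 8.43, 8.38, 8.44 and 8.61 in morphants, against 6.95, 6.29 and 7.01 in controls (difference 1.71, adjusted p = 1.3e-07, and 1.48). In both, control replicate 3 was the lowest array and the morphants lay above all controls. The same order of arrays held for *pleca*, which encodes the cytolinker plectin (difference 1.45), *sesn3*, which encodes a sestrin (1.43), *nsd1a*, which encodes a histone methyltransferase (1.41), and *guk1a*, which encodes a guanylate kinase (1.63). The controls of *guk1a*, at 3.83, 2.99 and 4.59, were near the background of the arrays, so its fold is uncertain. A further probe set of *pleca* rose too (difference 1.55), whereas that of *nsd1a* had a difference of -0.29 (adjusted p = 0.073). The gene *sh3bgrl* was at 9.14 to 9.26 in morphants, against 8.05, 6.49 and 8.86 in controls, and its difference of 1.40 (adjusted p = 0.0045) was 0.74 without control replicate 3 (adjusted p = 0.0011).

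**Figure D2:**
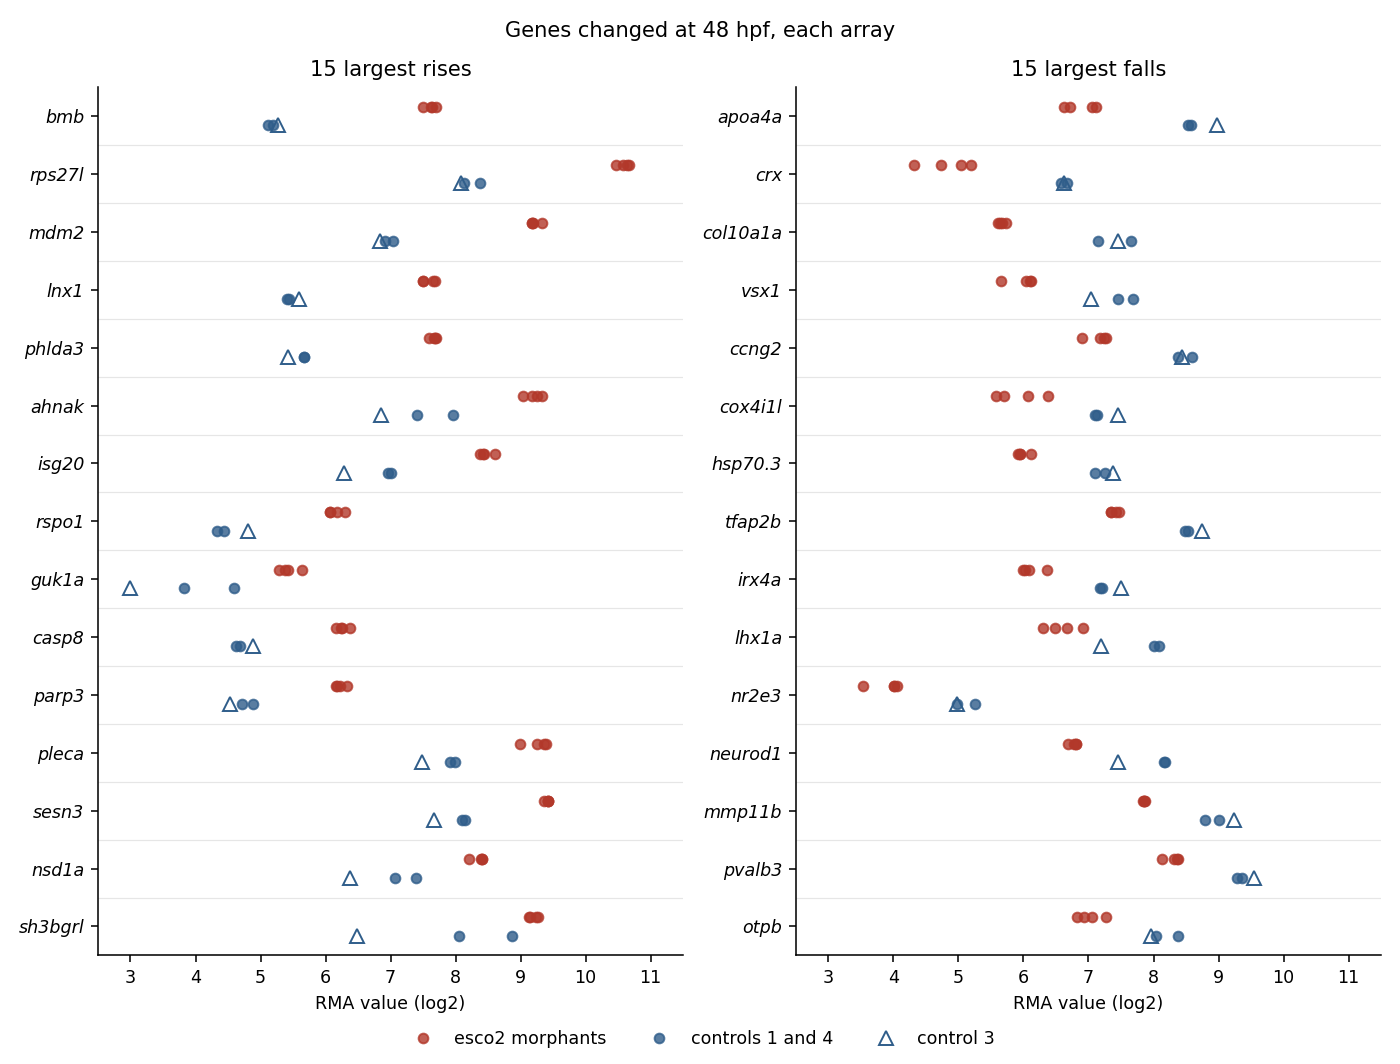
RMA values (log2) of each 48 hpf array for the 15 named genes with the largest rises (left) and the 15 with the largest falls (right), with the 4 *esco2* morphants in red above the controls in blue and control replicate 3 as an open triangle. Morphants and controls did not overlap for any of the 30 genes, where 15.6% of all genes had every morphant above every control and 13.8% every morphant below. The 30 genes were chosen by their difference on these same arrays, so this separation is a description. The triangle lies far left of the other controls for *sh3bgrl* (6.49) and *guk1a* (2.99).

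The *esco2* transcript itself was at 8.28, 8.64, 8.61 and 8.68 in morphants, against 8.23, 8.23 and 8.01 in controls. It rose by 0.40 (standard error 0.10, adjusted p = 0.0064) and did not pass the test with the 48 hpf arrays alone. A translation-blocking morpholino need not remove its mRNA, so this level does not check the knockdown.

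Genes of the damage and stress response, *mdm2*, *rps27l*, *phlda3* and *sesn3* among them, had the largest share of rises of any list of 10 or more genes. Of 20 measured, 11 rose and none fell, where 14.3% of all genes rose and 11.7% fell at the adjusted p with no minimum fold, the rule used for all lists below. The median difference was 0.51 over the list, against 0.01 over all genes. With arrays centred on ribosomal protein genes 28.7% of all genes rose and 6.25% fell, and that scaling raises the median of every list by about the same amount. Medians printed below that it turned positive are named with their lists. Medians of lists given below by counts alone turned positive too, among them neural crest (0.10) and Hox genes (0.06). So did those of splicing factors (0.08, 16 rose and 7 fell), liver and plasma proteins (0.10, 9 and 6) and red blood cells (0.11, 5 and 3). The damage and stress response genes were chosen with earlier results of these data known, and the transcript *cdkn1a* was not analysed here. The gene *ccng1*, which encodes cyclin G1, was at 12.41, 12.46, 12.47 and 12.39 in morphants, against 11.24, 10.93 and 11.36 in controls, a 2.39-fold rise (adjusted p = 1.2e-07). The 9 members that did not pass had differences down to -0.17, for *bida*, whose mammalian relative links caspase 8 to mitochondria. Without control replicate 3, *bida* fell by 0.26 (adjusted p = 0.018) and 11 members rose, where 14.1% of all genes rose and 10.9% fell in that fit. The gene *mdm4*, a relative of *mdm2* outside this list, fell by 0.57 (adjusted p = 0.0011), and the cyclin G2 gene *ccng2* fell by 1.32 (adjusted p = 2.5e-06).

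**Figure D3:**
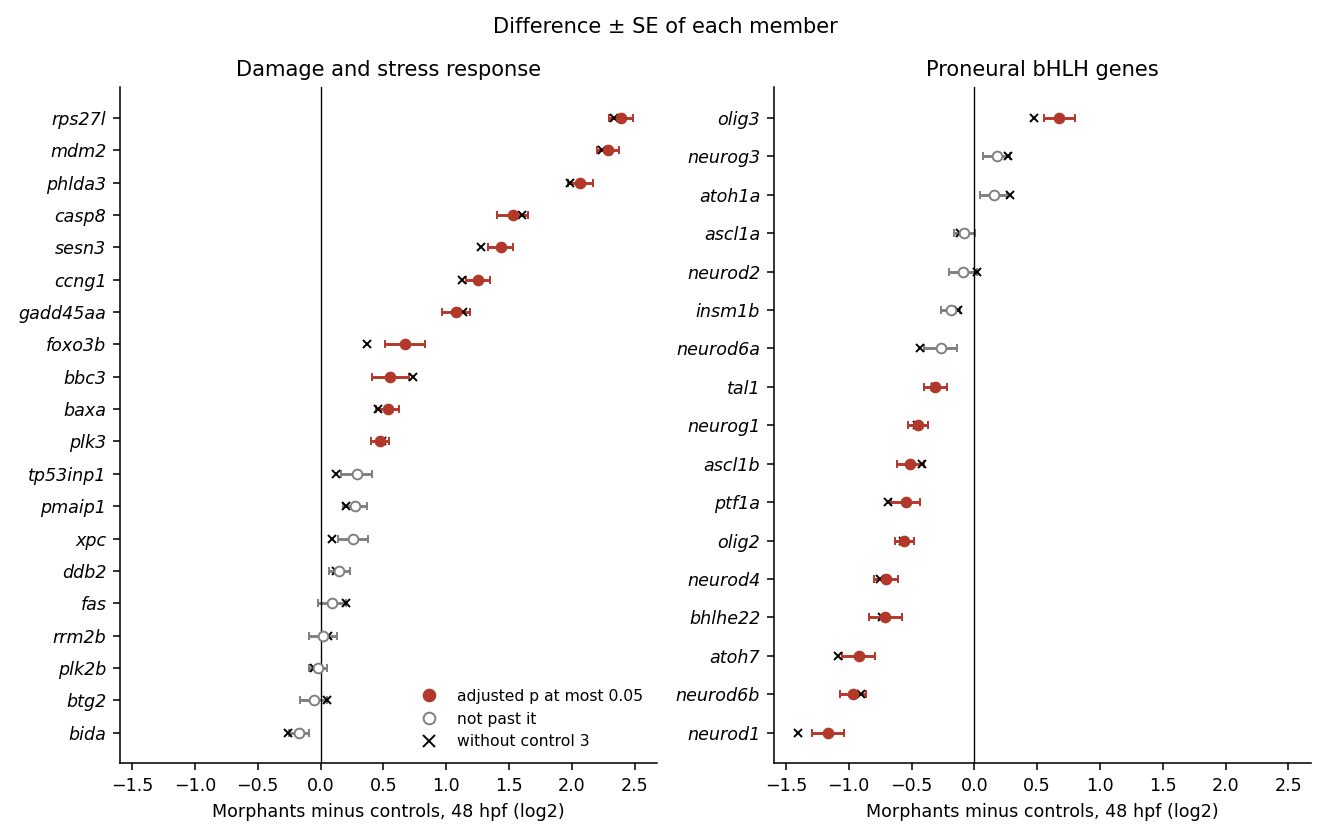
Difference between *esco2* morphants and controls at 48 hpf (log2, with its standard error) for each of 20 damage and stress response genes (left) and 17 proneural genes (right), filled where the adjusted p is at most 0.05, with a cross for the difference without control replicate 3. The damage and stress response genes reach from -0.17 to 2.39 and the proneural genes from -1.16 to 0.68.

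Of 23 genes of the apoptosis machinery 6 rose and 1 fell. Of the rises, those of *casp8*, *baxa* and *bbc3* are counted in the damage and stress response list too. Beside *casp8*, the genes that rose included the adaptor gene *pycard* (difference 0.56, adjusted p = 0.00047), *baxa*, which encodes the pore-forming Bax (0.54, 0.00042), and *diabloa*, whose product blocks the inhibitors of caspases (0.54, 0.00076). The anti-apoptotic gene *bcl2l10* fell by 0.37 (adjusted p = 0.0041). The median of the list was 0.14.

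Genes of DNA replication and genes of mitosis had medians of opposite sign. Of 49 replication and S phase genes 14 fell and 6 rose, with a median difference of -0.15 (8 and 8, and -0.02, with arrays centred on ribosomal protein genes). The dUTPase gene *dut* was at 9.58, 9.71, 9.65 and 9.58 in morphants, against 10.21, 10.44 and 10.13 in controls, and fell by 0.63 (adjusted p = 4.2e-05). The helicase genes *mcm2*, *mcm3* and *mcm5* fell by 0.56, 0.55 and 0.52 and *cdca7a*, which encodes a chromatin protein, by 0.57. The largest rise of the list was that of *orc3*, which encodes an origin recognition subunit (0.59, adjusted p = 6.9e-05). The licensing gene *cdc6* did not pass the test (difference -0.29, adjusted p = 0.084). Control replicate 3 was the highest control for *dut* and these 3 helicase genes, and without it 10 of the 49 fell and 4 rose, with a median of -0.04.

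Of 44 genes of mitosis and the spindle 11 rose and 2 fell, with a median of 0.10. With cyclic loess 7 rose, a share of 15.9%, where 1150 of all 8793 genes rose, and the median was 0.06. The kinetochore scaffold gene *knl1* was at 8.14, 7.94, 7.98 and 7.90 in morphants, against 6.96, 6.83 and 7.15 in controls, a 2.01-fold rise (adjusted p = 6.5e-07). The gene *prc1b*, which encodes a microtubule bundler of the central spindle, rose by 0.64, and the kinetochore gene *nuf2* and the kinesin gene *kif2c* rose by 0.51 and 0.47. The controls of *nuf2* (mean 4.43) were near background. The kinesin gene *kif20a*, which acts in cytokinesis, fell by 0.69 (adjusted p = 0.0014). With the 48 hpf arrays alone 5 of these genes rose and 1 fell, where 8.29% of all genes rose and 6.57% fell in that fit. Among 11 genes of cohesin and its regulators *esco2* was the one that rose, and *pds5b*, which encodes a cohesin-bound regulator, and *hdac8*, which encodes the deacetylase of Smc3, fell by 0.33 and 0.36. Without control replicate 3 *hdac8* did not pass (difference -0.28, adjusted p = 0.065), and with the 48 hpf arrays alone none of the 11 passed (adjusted p = 0.064 for *pds5b* and 0.056 for *hdac8*). Of 23 DNA damage and repair genes 6 rose and 1 fell, among them *rad18*, which encodes a ubiquitin ligase of stalled replication forks (0.49, adjusted p = 8.7e-05). The translesion polymerase gene *polh* fell by 0.43.

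Among lists of 10 or more genes, those of proneural genes and of differentiated neurons had the largest shares of falls, also without control replicate 3, with the 48 hpf arrays alone and under both other scalings. In RNA of whole embryos, fewer cells of a type and less RNA per cell cannot be told apart. Of 17 genes listed as proneural, most of them basic helix-loop-helix transcription factors that drive cells to become neurons, 10 fell and 1 rose, with a median difference of -0.45. The gene *neurod1*, which promotes neuronal differentiation, was at 6.69, 6.78, 6.81 and 6.80 in morphants, against 8.18, 7.46 and 8.16 in controls, and fell by 1.16 (standard error 0.13, adjusted p = 7.9e-06). Its lowest control was replicate 3, without which the fall was 1.40. Its relatives *neurod6b* and *neurod4* fell by 0.97 and 0.70, and *olig2*, which specifies motor neurons and oligodendrocytes, by 0.56. The gene *olig3*, which patterns the dorsal spinal cord, rose by 0.68 (adjusted p = 0.00086). The paralogs *ascl1a* and *ascl1b* had differences of -0.08, which did not pass, and -0.51 (adjusted p = 0.0022). The list also holds *ptf1a* and *tal1*, which act in the pancreas and in blood as well.

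Of 43 genes of neural progenitors and brain patterning 19 fell and 3 rose (12 and 6 with arrays centred on ribosomal protein genes). The LIM homeobox gene *lhx5*, expressed in the forebrain, was at 7.98, 7.86, 7.87 and 7.79 in morphants, against 8.90, 8.98 and 8.95 in controls, a 2.09-fold fall (adjusted p = 5e-08). The gene *otx2b*, which specifies forebrain and midbrain, was at 8.17, 8.11, 8.04 and 8.08 in morphants, against 9.21, 9.26 and 8.92 in controls, a 2.04-fold fall (adjusted p = 1.8e-07). Both groups were narrow and far apart. The homeobox genes *barhl2* and *gbx1* and the T-box gene *eomesa* fell by 0.93, 0.86 and 0.82. The gene *emx3*, of the dorsal telencephalon, rose by 0.54 from controls near background. Outside this list, the hypothalamic gene *otpb* fell by 1.1 and the LIM homeobox gene *lhx1a*, which also acts in the kidney, by 1.17 (1.46 without control replicate 3), as did both further probe sets of *lhx1a*, by 0.92 and 0.70.

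Notch signaling holds progenitors back from differentiation. Of 26 genes listed as Notch ligands, receptors and *her* genes 8 fell and 3 rose, with a median of -0.08 (0.04 with arrays centred on ribosomal protein genes). The *her* family genes *her2* and *her9* rose by 0.62 and 0.42 and *her3* fell by 0.72. The ligand genes *jag1a* and *dla* fell by 0.70 and 0.47 and *hes6*, whose product opposes Hairy-type repressors, by 0.70. Of 37 genes of differentiated neurons 21 fell and none rose, with a median of -0.34. The gene *mab21l2*, active in eye and midbrain, was at 8.91, 8.73, 8.88 and 8.87 in morphants, against 9.76, 9.86 and 9.77 in controls (difference -0.95, adjusted p = 1.2e-07). The neuronal tubulin gene *tubb5* and the axon growth gene *dpysl3* both fell by 0.65, and the kinesin gene *kif5aa* by 0.56. Without control replicate 3, 24 of the 37 fell, and with the 48 hpf arrays alone 15. With arrays centred on ribosomal protein genes 14 fell and 3 rose, with a median of -0.22. Of 14 glial and myelin genes 5 fell, among them the glutamate transporter gene *slc1a2b* (-0.57) and *gfap* (-0.44), and *mbpb*, listed with myelin genes, rose by 0.66.

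The largest falls of the retina list were those of regulators of photoreceptors and bipolar cells. The homeobox gene *crx*, which directs photoreceptor differentiation, was at 4.73, 4.32, 5.19 and 5.04 in morphants, against 6.67, 6.62 and 6.57 in controls, a 3.49-fold fall (difference -1.80, standard error 0.15, adjusted p = 4.1e-07). The bipolar cell gene *vsx1* was at 6.12, 5.66, 6.04 and 6.11 in morphants, against 7.69, 7.04 and 7.46 in controls (difference -1.42, adjusted p = 8e-07). The photoreceptor nuclear receptor gene *nr2e3* was at 4.01, 3.54, 4.02 and 4.06 in morphants, against 5.25, 4.98 and 4.99 in controls (difference -1.17, adjusted p = 4.4e-06). The morphants of *nr2e3* and *crx* were at or near the background of the arrays, so these falls may be larger than measured. The gene *otx5*, a relative of *crx*, fell by 0.98, and *atoh7*, which generates ganglion cells and is counted above as proneural, by 0.92. Over the whole list of 34 retina genes 8 fell and 2 rose, with a median of -0.07 (0.06 with arrays centred on ribosomal protein genes), and the cone transducin gene *gnat2* rose by 0.60 from controls at background. Without control replicate 3, 8 fell and 6 rose. Of 14 lens genes 2 fell and 1 rose, *crybb1*, by 0.63.

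**Figure D4:**
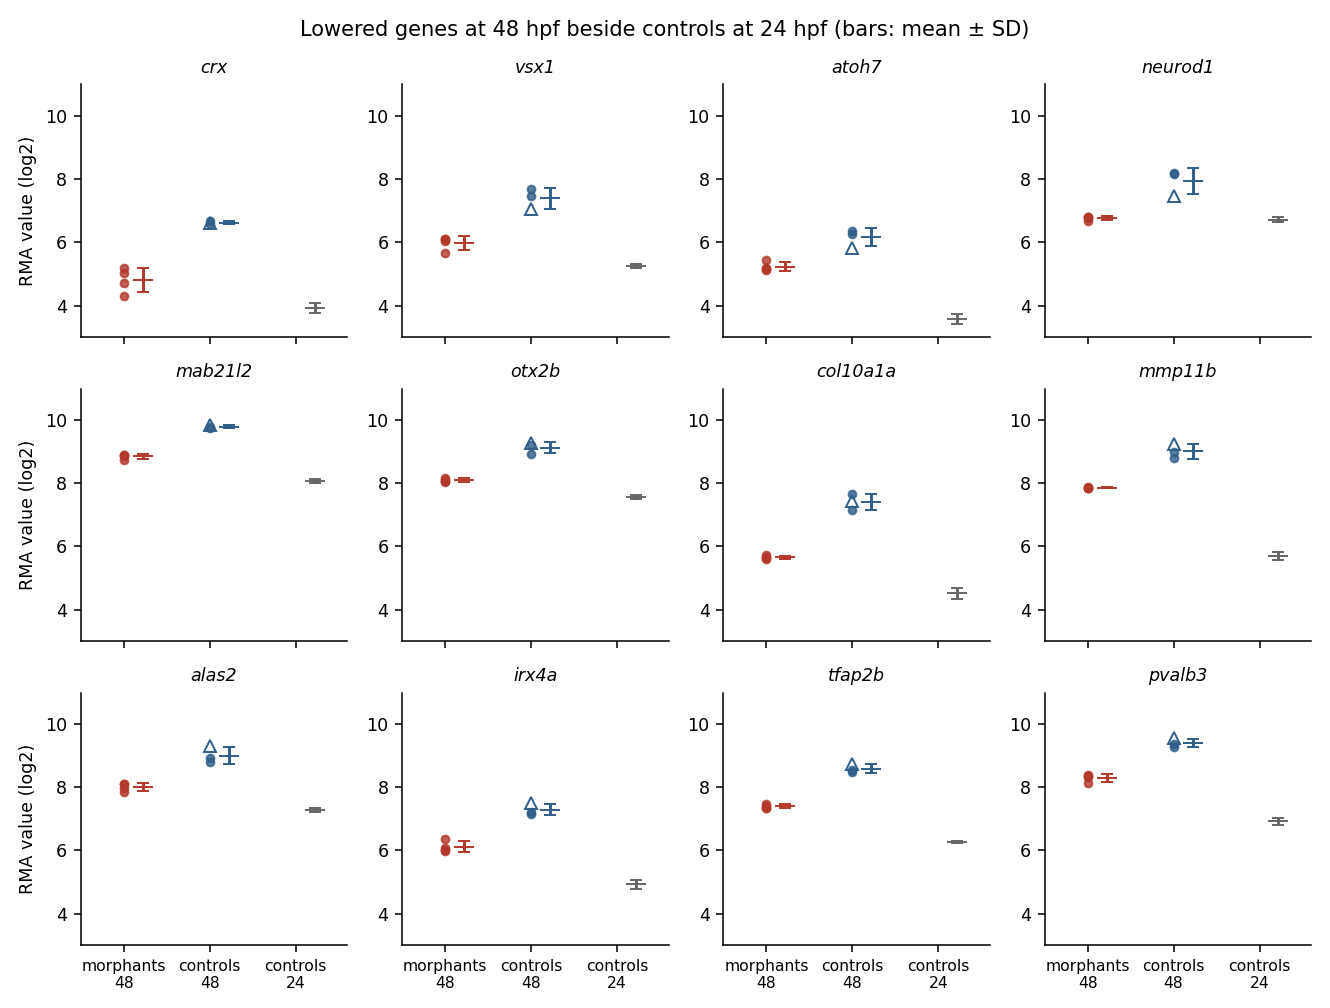
RMA values (log2) of 12 lowered genes in *esco2* morphants at 48 hpf, controls at 48 hpf (control replicate 3 as an open triangle) and controls at 24 hpf, with points for the 48 hpf arrays and bars for the mean and SD (n = 4, 3 and 4), the 12 genes being chosen after their values were seen. The morphant mean of *crx* (4.82) lies between the control means of 48 hpf (6.62) and 24 hpf (3.93), and that of *neurod1* (6.77) is close to the control mean of 24 hpf (6.72). In each of the 12 the morphant mean lies above the control mean of 24 hpf. Not every lowered gene did so: the morphant means of *ccng2* (7.14) and *gbx1* (6.16), not shown, lay below those control means (8.18 and 6.59).

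For 14 of the 15 genes with the largest falls the mean of the controls was higher at 48 than at 24 hpf, as it was for 6 of the 15 with the largest rises and 4252 of all 8793 genes. The 48 hpf controls enter both the choice of these genes and this order, so the number is a description. The effect at 48 hpf differed from that at 24 hpf for 55 of the 81 changed genes (35 of 56 raised and 20 of 25 lowered), as it did for 7.21% of all genes. The 81 genes were chosen by their 48 hpf effect, which favours such a difference, so this number is a description too. The gene *col10a1a*, a collagen of hypertrophic cartilage and forming bone, averaged 5.66 ± 0.05 in morphants (SD, n = 4) and 7.42 ± 0.26 in controls at 48 hpf (SD, n = 3), where controls at 24 hpf averaged 4.51 ± 0.17 (SD, n = 4). Its values were 5.61, 5.67, 5.64 and 5.73 in morphants, against 7.14, 7.45 and 7.65 in controls, a 3.37-fold fall (adjusted p = 3.4e-08). The gene *apoa4a*, which encodes an apolipoprotein, did not follow this order. It averaged 6.88 ± 0.25 in morphants (SD, n = 4) and 8.69 ± 0.25 in controls (SD, n = 3), and 9.19 ± 0.04 in controls at 24 hpf (SD, n = 4).

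Of 30 cartilage and bone genes 10 fell and 1 rose, with a median of -0.10 (0.02 with arrays centred on ribosomal protein genes). Beside *col10a1a*, the chondromodulin gene *cnmd* fell by 0.74, the cartilage collagen genes *col9a2* and *col9a3* by 0.45 and 0.37, and *edn1*, a signal that patterns the jaw, rose by 0.38. With the 48 hpf arrays alone 6 fell and 1 rose. The transcription factor gene *runx3*, which acts in skeleton and blood, did not pass the test (difference 0.07), nor did the blood stem cell gene *runx1*, which was at background (0.04). Of 16 neural crest genes 4 fell and 3 rose. The gene *tfap2b*, an AP-2 transcription factor of crest and its neurons, was at 7.42, 7.34, 7.48 and 7.34 in morphants, against 8.54, 8.75 and 8.48 in controls, a 2.29-fold fall (adjusted p = 1.2e-08). The glial and pigment regulator *sox10* fell by 0.58. The retinoic acid binding protein gene *crabp2a* was at 8.92, 8.91, 8.90 and 8.94 in morphants, against 7.65, 7.22 and 7.86 in controls, a 2.54-fold rise (adjusted p = 2.5e-07), and *crestin*, which marks migrating crest, rose by 0.84 (0.46 without control replicate 3). Of 20 genes of the pectoral fin and fin fold 4 rose and 1 fell, and all their differences were between -0.38 and 0.53.

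Other homeobox families were measured as well. All 7 Iroquois genes measured had a negative difference and 3 of them fell. The gene *irx4a*, which acts in retina and heart, was at 6.37, 6.03, 6.09 and 6.0 in morphants, against 7.17, 7.51 and 7.21 in controls, a 2.26-fold fall (adjusted p = 1.2e-06), and *irx1a* and *irx1b* fell by 0.68 and 0.47. Of 42 Hox genes 7 fell and 3 rose, shares of 16.7% and 7.14%, against 11.7% and 14.3% of all genes. Among them were *hoxc4a* (-0.70), *hoxa9b* (-0.61) and *hoxc6b* (0.48, from controls near background). With the 48 hpf arrays alone 4 fell and 1 rose.

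Of 23 genes of red blood cells 5 fell and 2 rose. The gene *alas2*, which encodes the first enzyme of heme synthesis in red cells, was at 7.98, 8.10, 8.10 and 7.85 in morphants, against 8.92, 9.31 and 8.79 in controls (difference -1.0, adjusted p = 4.3e-06). The anion exchanger gene *slc4a1a* and the globin gene *hbbe2* fell by 0.66 and 0.58, while the globin gene *hbbe3* did not pass (0.20, adjusted p = 0.105) and the erythroid regulator *klf1* rose by 0.53 from a low level. Globin genes are near-identical, and signal may be shared between their probe sets. Of 24 myeloid genes 6 fell and 4 rose. The lysozyme gene *lyz* was at 9.87, 9.84, 9.85 and 9.74 in morphants, against 10.34, 10.36 and 10.33 in controls (difference -0.52, adjusted p = 5.4e-05). The chemokine receptor gene *cxcr4b* fell by 0.99 and its ligand gene *cxcl12a* rose by 0.80 (adjusted p = 1.8e-06 and 3.9e-05), both of which are expressed well beyond blood.

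Of 17 apolipoprotein genes 6 fell and 3 rose. The gene *apoa4a* was at 7.12, 7.06, 6.62 and 6.72 in morphants, against 8.58, 8.98 and 8.53 in controls, the largest fall of a named gene (3.52-fold, adjusted p = 2.4e-08). The genes *apom* and *apoa4b.2* fell by 0.75 and 0.61, and *apoba*, which encodes the structural protein of yolk-derived lipoproteins, rose by 0.82. Of 45 genes of liver and plasma proteins 11 fell and 2 rose. The hemopexin gene *hpxa*, near background in morphants, fell by 0.82 and the vitronectin gene *vtnb* by 0.55. By contrast, *itih3a.1*, which encodes a heavy chain of a plasma protease inhibitor, rose by 1.13 (adjusted p = 8e-07). The fibrinogen genes *fgb* and *fgg* did not pass (differences 0.02 and 0.12). Without control replicate 3, 9 of the 45 fell and 5 rose. Of 30 gut and pancreas genes 2 fell and 2 rose.

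Of 53 genes of epidermis and keratins 19 rose and 3 fell, with a median of 0.16. Beside *ahnak*, the carbonic anhydrase gene *ca2*, present in skin ionocytes, was at 10.3, 10.28, 10.35 and 10.37 in morphants, against 9.13, 8.45 and 9.46 in controls, a 2.48-fold rise (adjusted p = 8.8e-06, and a difference of 1.03 without control replicate 3). The annexin gene *anxa2a* was at 9.07, 9.24, 9.08 and 9.25 in morphants, against 8.50, 8.62 and 8.41 in controls (difference 0.65, adjusted p = 1.5e-05), and *scel*, which encodes a protein of the cornified layer in mammals, rose by 0.60. Of 28 genes of innate immunity and interferon 10 rose and 1 fell, with a median of 0.21. After *isg20* these included *isg15*, which encodes a ubiquitin-like protein, at 5.35, 5.21, 5.27 and 5.39 in morphants, against 4.60, 4.53 and 4.52 in controls (difference 0.76, adjusted p = 9.1e-05), and at 24 hpf its rise was 3.48. The controls of *isg15* were near background at 48 hpf and at 24 hpf (mean 4.33), so the size of both rises is uncertain. The inflammatory caspase gene *caspb* rose by 0.73, *socs3b*, a feedback inhibitor of cytokine signals, by 0.77 and *irf9*, where both groups were at background, by 0.75, while the RNA editing gene *adar* fell by 0.45.

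Of 49 skeletal muscle genes 14 rose and 5 fell. The gene *nexn*, which encodes a protein of the Z-disc, was at 7.25, 7.28, 7.48 and 7.26 in morphants, against 6.27, 5.42 and 6.50 in controls (difference 1.26, and 0.93 without control replicate 3). The ubiquitin ligase gene *trim55a* rose by 0.76 (adjusted p = 8.1e-07) and the determination gene *myf5*, where both groups were near background, by 0.40. The calcium-binding parvalbumin gene *pvalb3* was at 8.36, 8.31, 8.38 and 8.13 in morphants, against 9.36, 9.55 and 9.29 in controls, a 2.15-fold fall (adjusted p = 2.4e-07), and the chaperone gene *hsp90aa1.2* fell by 0.77. With the 48 hpf arrays alone 8 rose and 2 fell. Of 17 heart genes 4 rose and 1 fell, among them the contractile genes *tnnt2a* (0.76) and *myl7* (0.55).

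Genes that remodel the extracellular matrix moved in both directions. Of 34 genes of matrix and basement membrane 9 rose and 6 fell. The gelatinase gene *mmp2* was at 9.44, 9.68, 9.58 and 9.73 in morphants, against 8.40, 8.28 and 8.41 in controls, a 2.37-fold rise (adjusted p = 4.5e-08). The protease gene *mmp9* rose by 0.92, *fn1b*, which encodes fibronectin, by 0.79 and the protease inhibitor gene *timp2b* by 0.78. The stromelysin gene *mmp11b* was at 7.87, 7.85, 7.85 and 7.84 in morphants, against 9.0, 9.23 and 8.79 in controls, a 2.22-fold fall (adjusted p = 5.5e-07), and *mmp13a* fell by 0.77.

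Several chaperones of the endoplasmic reticulum fell. Of 24 genes of the unfolded protein response 9 fell and 3 rose, with a median of -0.19 (7 and 5, and -0.06, with arrays centred on ribosomal protein genes). The chaperone gene *hsp90b1* was at 7.59, 7.68, 7.58 and 7.59 in morphants, against 8.28, 8.44 and 8.24 in controls (difference -0.71, adjusted p = 1.3e-06). Another, *hspa5*, was at 8.38, 8.36, 8.2 and 8.16 in morphants, against 9.02, 8.97 and 8.94 in controls (difference -0.70, adjusted p = 5.1e-06). The disulfide isomerase gene *pdia3* fell by 0.65, and the stress transcription factor gene *atf5a* rose by 1.02 (adjusted p = 0.00046, and 0.78 without control replicate 3). Over all 66 heat shock and chaperone genes 11 rose and 11 fell, with *hspb8* up by 0.94 (0.71 without control replicate 3) and the inducible *hsp70.3* down by 1.26. The probe set of *hsp70.3* is of a kind that can also bind related transcripts. Of 37 immediate early genes 7 rose and 2 fell. The gene *fosab*, a subunit of the transcription factor AP-1, was at 8.12, 8.52, 8.97 and 8.94 in morphants, against 6.38, 7.71 and 8.35 in controls. Its rise of 1.16 (adjusted p = 0.017) was the one named 2-fold change with overlapping groups, and it did not pass with the 48 hpf arrays alone. The gene *atf3* rose by 0.92 (0.65 without control replicate 3), *junbb* by 0.60 and *myca*, which encodes Myc, by 0.50 (adjusted p = 0.00021).

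Of 33 genes of glycolysis and gluconeogenesis 11 fell and none rose, with a median of -0.15, led by *ldha* (-0.63), *tpi1a* (-0.53) and *fbp1b* (-0.52). With arrays centred on ribosomal protein genes 9 of the 33 fell and 4 rose, with a median of -0.03. Of 86 respiratory chain genes 6 rose and 3 fell, shares of 6.98% and 3.49%. The 3 falls were large: *cox4i1l*, which encodes a cytochrome c oxidase subunit, was at 6.08, 6.38, 5.57 and 5.71 in morphants, against 7.13, 7.46 and 7.10 in controls (difference -1.29, adjusted p = 6e-05), *cox6b1* fell by 1.07 and *ndufa4b* by 0.66. Of 31 antioxidant genes 4 rose and 2 fell, among them *prdx1* (0.34) and *gsto2* (0.49). Of 26 clock genes 5 rose and none fell with all arrays, and 3 rose and 1 fell without control replicate 3.

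Ribosomal protein genes of mitochondria and of the cytoplasm had medians of opposite sign. Of 59 mitochondrial ribosomal protein genes 21 rose and 1 fell, with a median of 0.18. The gene *mrpl12* was at 10.12, 10.03, 10.02 and 9.95 in morphants, against 9.59, 9.46 and 9.48 in controls (difference 0.52, adjusted p = 4e-05). With the 48 hpf arrays alone 7 rose and none fell. Of 71 genes named as cytoplasmic ribosomal proteins 12 fell and 2 rose, with a median of -0.10, and centring arrays on these same genes, which shifted all genes by 0.12, takes that direction away by construction. With cyclic loess the median was -0.04 and 7 fell, a share of 9.86%, below the 14.1% of all genes that fell in that scaling. With the 48 hpf arrays alone 3 fell and 1 rose. The paralog gene *rpl22l1* was at 9.60, 9.38, 9.53 and 9.46 in morphants, against 10.59, 10.40 and 10.77 in controls, a 2.13-fold fall (adjusted p = 2.9e-07). The core genes *rps9* and *rpl12* fell by 0.39 and 0.31, and the largest rise of the list was that of *rps27l*. Of 64 translation factor genes 13 rose and 10 fell, among them *eif6* (0.87), *eif4ebp1*, which encodes a repressor of cap-dependent translation (0.65), and *eif3i* (-0.43), and 6 fell without control replicate 3. Of 77 splicing factor genes 12 fell and 3 rose, with *srsf1b* down by 0.63 and *srsf3b* by 0.45. In the fit of the 48 hpf arrays alone, where fewer of all genes passed, 9 replication genes, 7 liver and plasma protein genes, 7 chaperone genes, 6 splicing factor genes and 5 translation factor genes fell, while 3 repair genes, 4 chaperone genes, 4 immediate early genes, 5 translation factor genes and no respiratory chain gene rose. The plot of the gene lists shows these shares beside those of all genes.

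**Figure D5:**
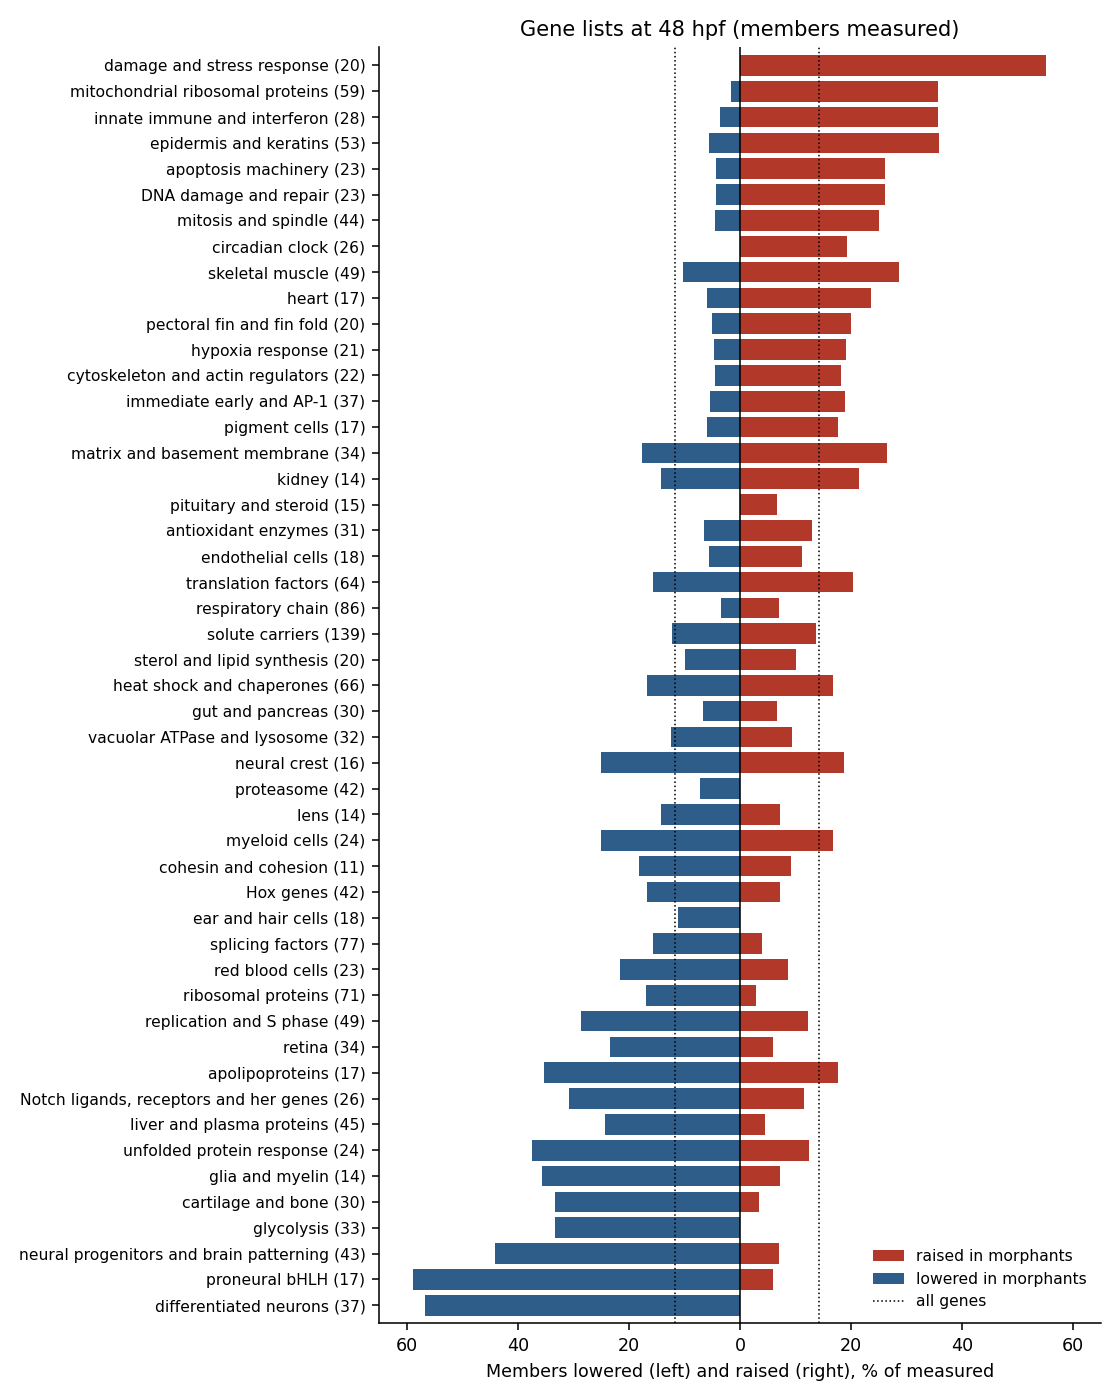
Percent of the measured members of each gene list (number in brackets, lists of 10 or more) that were raised in *esco2* morphants at 48 hpf (red, right) and lowered (blue, left) with an adjusted p no higher than 0.05, with dotted lines at the shares of all genes (14.3% and 11.7%). The damage and stress response genes (55% raised) stand at the top, and the differentiated neurons (56.8% lowered) and proneural genes (58.8% lowered) at the bottom.

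Of 139 solute carrier genes 19 rose and 17 fell, shares of 13.7% and 12.2%. Of 42 proteasome genes 3 fell and none rose, and all their differences lay between -0.30 and 0.24. Of 18 endothelial genes 2 rose and 1 fell, of 17 pigment cell genes 3 rose and 1 fell, and of 18 genes of ear and hair cells 2 fell.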

How the data were processed

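Expression was measured in total RNA of pooled embryos with the Affymetrix zebrafish expression array. Per the methods, the authors checked the arrays with AffyQCReport and normalized them by RMA (background correction, quantile normalization, 1 summary per probe set), and the deposited values are log2. The tool versions used by the authors are not given in the sources used here. The values were taken as deposited. Of 15617 probe sets, 115 Affymetrix controls were left out of the tests, and of the 15502 tested 10795 carry 1 symbol in the platform annotation, 135 several and 4572 none.

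In R 4.3.3 with limma 3.58.1, group means were fitted to all 15 arrays (11 residual degrees of freedom) with lmFit and eBayes. Every p-value is two-sided, adjusted by Benjamini-Hochberg, and comes from this fit unless a fit on fewer arrays is named beside it. Tables and figures were made with Python 3.11.15, pandas 2.3.3 and matplotlib 3.10.9. The arrays of this comparison were chosen by their labels. The 53 gene lists were chosen with earlier results of these data known, so lists are described by counts and medians and were not tested. Named are *esco2*, the 15 largest rises and falls among changed genes without clone names, per list the 5 members of smallest adjusted p and its extremes, and genes the study names. Probe sets, not transcripts, were measured, and values near background understate a change. The number of arrays limits the precision.

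The code was tested on simulated data with this comparison's design and 15502 probe sets: of 100 shifted by 1, 99 passed the adjusted p and 48 also the fold, of 100 shifted by 2 all 100 passed both, with 23 false calls at the adjusted p and 0 with the fold. At the adjusted p the false calls were a larger share of all calls in this simulation than the limit of 0.05. The simulated noise was independent, with the same spread in every group and no array standing apart. In the data the median SD over all genes was 0.16 in the 48 hpf controls and 0.11 in the morphants. The simulation therefore checks the code and not the error rate with control replicate 3.

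The alternatives were other sets of arrays, a replicate block, cyclic loess, centring on ribosomal protein genes, a filter on dim probe sets, array weights, other eBayes options, other folds and averaging the probe sets of each gene.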

Additional observations from a re-analysis of the deposited data

Results flagged for a closer look

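Of the 30 named genes with the largest changes and *esco2*, 21 had an effect at 48 hpf that differed from that at 24 hpf in limma (adjusted p of the difference at most 0.05, which 7.21% of all genes reached). The genes were chosen by their 48 hpf effect, so this number is a description. Differences of effects are given as 48 minus 24 hpf on the log2 scale.

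A first set rose at both times and less at 48 hpf: *casp8* by 1.53 at 48 hpf and 2.93 at 24 hpf (difference of effects -1.40), *phlda3* by 2.07 and 3.16 (-1.09), *rspo1* by 1.63 and 2.36 (-0.73) and *lnx1* by 2.11 and 2.79 (-0.68). A second set rose at 48 hpf and did not pass at 24 hpf: *ahnak* (difference of effects 1.85), *nsd1a* (1.58), *guk1a* (1.39) and *pleca* (1.37). In each of these, control replicate 3 was the lowest control at 48 hpf. Without that array the rises at 48 hpf were 1.52 for *ahnak*, 1.13 for *nsd1a*, 1.22 for *guk1a* and 1.3 for *pleca*. The differences of effects given here for these genes include that array. In the fit without it, 1084 probe sets had an effect that differed from that at 24 hpf, against 973 with all arrays. These counts cover all probe sets and do not show the differences of effects of these genes without that array. A further probe set of *nsd1a* had a difference of effects of -0.22 (adjusted p = 0.467), and that of *pleca* 1.39 (adjusted p = 0.0056).

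Among the falls, *apoa4a* fell by 1.82 at 48 hpf and 0.70 at 24 hpf (-1.11), and *vsx1* (-0.93), *tfap2b* (-0.90) and *pvalb3* (-0.73) fell at both times as well. The genes *crx* (-1.66), *col10a1a* (-1.61), *cox4i1l* (-1.55), *irx4a* (-1.07), *nr2e3* (-1.07), *hsp70.3* (-1.02), *mmp11b* (-0.90) and *neurod1* (-0.89) fell at 48 hpf and did not pass at 24 hpf. At 24 hpf the controls of *crx* (3.93) and *nr2e3* (3.66) were at background (3.80 to 4.15 on these arrays), where a fall could not have been measured. Those of *col10a1a* (4.51), *cox4i1l* (4.64) and *irx4a* (4.93) were little above it, so the range for a fall was limited. The *esco2* transcript rose by 0.40 at 48 hpf and fell by 0.31 at 24 hpf (difference of effects 0.71, adjusted p = 0.0039).

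In 5 of these 31 genes 1 morphant array of 48 hpf stood apart from the other 3, its gap divided by the range of the group being 0.913 for *mdm2* (replicate 4, 9.33, the highest), 0.934 for *sesn3* (replicate 1, 9.36, the lowest), 0.96 for *nsd1a* (replicate 2, 8.21, the lowest), 0.919 for *nr2e3* (replicate 2, 3.54, the lowest) and 0.842 for *esco2* (replicate 1, 8.28, the lowest). Chance gives about 1 in 20 such groups, and the ranges of *mdm2* and *sesn3* were small.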

How the results depend on the processing

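None of the 248 named genes past the adjusted p changed sign under any alternative. Of the 15 largest rises and 15 largest falls, all kept an adjusted p of at most 0.05 under every alternative, except *sh3bgrl* with the 48 hpf arrays alone (adjusted p = 0.054). Of the 248, 40 lost their call with the 48 hpf arrays alone, 34 with those and without control replicate 3, 26 with the replicate block, 21 without control replicate 3, 16 with centring on ribosomal protein genes and 131 in the test against a fold of 1.2. Other alternatives lost 0 to 18.

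The 141 changed probe sets were 108 to 216 (107 with the 48 hpf arrays alone and without control replicate 3), and the 81 changed genes 62 to 115, when single arrays were left out. The 108 raised were 64 to 183, the lowest without control replicate 3 (65, or 64 with the 48 hpf arrays alone) and the highest without control replicate 4, where 216 probe sets changed. The 33 lowered were 33 to 43. The 973 differences of effects between 48 and 24 hpf were 701 to 1584, the highest without control replicate 4. Array weights gave 1896 such differences and the replicate block 364.

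Centring on ribosomal protein genes gave 171 raised and 20 lowered, and brighter probe sets alone 21 lowered, where fewer were tested. With other limits on the fold the counts were larger by construction: a test against a fold of 1.2 gave 403 raised and 248 lowered (651), a fold of at least 1.5 gave 581 and 255 (836, and 506 genes), and no minimum fold gave 1988 and 1518 (3506, and 2287 genes). With both limits, other alternatives stayed within 1.5 times. The 48 hpf arrays alone gave 133 changed probe sets, cyclic loess 136, array weights 122 and other eBayes options 137, and averaging the probe sets of each gene 76 genes. At the adjusted p alone, the rule used for the lists, the counts depended more on the processing. The 1988 raised and 1518 lowered were 1116 and 864 with the 48 hpf arrays alone. They were 1312 and 1030 with the replicate block, and 4088 and 811 with centring on ribosomal protein genes.

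The labels do not say that equal replicate numbers share a batch. The deviations of equally numbered arrays correlated at -0.143, -0.451 and -0.076 at 48 hpf, where no morphant correlated best with its own number, and at 0.198, 0.117, 0.021 and 0.123 at 24 hpf, where 3 of 4 did. The numbers were therefore not taken to pair the samples. With the replicate number as a block 148 probe sets changed (115 raised, 33 lowered) and 88 genes.

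With 3 controls, of which 1 stands apart, values of single genes near a 2-fold change are uncertain, and probe sets near background give only a limited range for a fall.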
